A study of Rattus norvegicus with 21 samples.

Results

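Steroid receptors and the coregulator proteins that bind them were followed across 21 arrays of anterior pituitary RNA from male rats. The members were the estrogen receptors Esr1 and Esr2, the progesterone receptor Pgr, the glucocorticoid receptor Nr3c1, the mineralocorticoid receptor Nr3c2, the coactivators Ncoa1, Ncoa2 and Ncoa3, and the corepressor Nrip1. Every probe set whose gene symbol in the platform annotation was one of these 9 names, out of 14217 genes with a symbol of their own on the array, was taken, which gave 13 of the 31042 probe sets on the array that are not Affymetrix controls. Ncoa1 had 3 probe sets, Nr3c1 and Ncoa3 had 2 each, and the remaining 6 genes had 1 each, and probe sets of a gene are numbered from the brightest by mean signal. Of the 13 probe sets, 10 passed the filter on low signals, and those of Esr2 and Ncoa2 and 1 of Ncoa1 did not.

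The study compared inbred rats of 3 strains, Brown Norway (BN), Copenhagen (COP) and ACI, in their response to diethylstilbestrol (DES), a synthetic estrogen. Each strain had 3 arrays from control rats, which carried an empty silastic tube, and 4 from rats whose tube held 5 mg of DES. The tube was placed between the shoulder blades at 9 weeks of age and the rats were killed at 21 weeks, after 12 weeks, and all of them had been given BrdU at 50 mg/kg 4 h before death. ACI and BN rats came from the same supplier and COP rats from another, so strain and supplier cannot be told apart for COP. Sample notes count 2 independent control and 3 independent DES replicates a strain, 1 fewer than the arrays, so the p values may in part measure technical spread.

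Steroid receptors are transcription factors that are switched on by binding a hormone. The bound receptor sits on DNA, alone or through other factors, and recruits coactivators such as the Ncoa proteins, which open chromatin and promote transcription, or corepressors such as Nrip1, which dampen it. The anterior pituitary is a target of estrogen, which drives the growth and prolactin output of its lactotrophs, and of glucocorticoid, which acts on corticotrophs to restrain the stress axis. Pgr and Nrip1 are textbook estrogen target genes, and glucocorticoid and mineralocorticoid receptors bind closely related DNA elements.

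Promoters of 4 members that changed with DES are printed so that the sequence at the start of each gene can be seen beside its values. They came from RefSeq on build GRCr8 and run from 250 bases before to 50 bases after the annotated start, 5′ to 3′ on the strand of the gene. Capitals mark a GC box (GGGCGG or CCGCCC), the core of an estrogen response element (GGTCA or TGACC) or of a glucocorticoid response element (AGAACA or TGTTCT), each searched on both strands. Pgr lies at chr8:14354148-14354447 on the plus strand, Nrip1 at chr11:28466363-28466662, Ncoa1 at chr6:33195875-33196174 and Nr3c1 at chr18:31613390-31613689, the latter 3 on the minus strand. RefSeq holds another Nr3c1 start, whose window at chr18:31614170-31614469 is not printed.
Pgr: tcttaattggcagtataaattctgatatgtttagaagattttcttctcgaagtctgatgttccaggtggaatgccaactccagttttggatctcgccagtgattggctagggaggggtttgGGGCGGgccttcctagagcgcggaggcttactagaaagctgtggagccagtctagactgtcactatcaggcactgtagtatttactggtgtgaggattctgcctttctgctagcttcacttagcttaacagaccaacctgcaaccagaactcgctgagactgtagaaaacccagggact
Nrip1: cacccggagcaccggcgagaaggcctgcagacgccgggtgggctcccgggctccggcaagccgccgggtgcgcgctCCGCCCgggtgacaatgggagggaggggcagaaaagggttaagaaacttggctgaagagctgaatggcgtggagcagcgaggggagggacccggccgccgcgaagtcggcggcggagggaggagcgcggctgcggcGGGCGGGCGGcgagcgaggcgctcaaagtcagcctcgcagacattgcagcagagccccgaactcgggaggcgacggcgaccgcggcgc
Ncoa1: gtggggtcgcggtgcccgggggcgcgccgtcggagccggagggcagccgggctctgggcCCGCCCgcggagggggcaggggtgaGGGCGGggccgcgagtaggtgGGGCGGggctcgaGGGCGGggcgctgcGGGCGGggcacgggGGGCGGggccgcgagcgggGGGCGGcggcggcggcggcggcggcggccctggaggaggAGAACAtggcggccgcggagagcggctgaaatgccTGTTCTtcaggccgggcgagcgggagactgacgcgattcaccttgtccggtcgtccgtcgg
Nr3c1: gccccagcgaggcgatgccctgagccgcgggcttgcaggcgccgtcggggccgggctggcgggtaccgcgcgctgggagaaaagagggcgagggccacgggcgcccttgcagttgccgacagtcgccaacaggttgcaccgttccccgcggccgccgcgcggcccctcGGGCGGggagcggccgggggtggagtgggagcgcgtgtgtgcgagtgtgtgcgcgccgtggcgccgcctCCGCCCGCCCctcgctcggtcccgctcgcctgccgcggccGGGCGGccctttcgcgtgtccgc

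The GC box occurred 1 time in the window of Pgr, 3 times in that of Nrip1, 7 times in that of Ncoa1 and 4 times in that of Nr3c1, and 33.1% of all 33469 rat promoter windows held at least 1. The other window of Nr3c1 held 1 GC box and was 66.0% G and C. The windows of Ncoa1, Nr3c1 and Nrip1 were 80.7%, 79.0% and 73.0% G and C and that of Pgr was 47.7%, against a median of 51.7% over all windows. The window of Ncoa1 also held AGAACA or TGTTCT 2 times, at 46 and 11 bases before the start, letters that 20.7% of all windows contain. None of the 4 windows held the 5 letters of the estrogen element core, which 40.5% of all windows contain, and Esr2 was the only member of the 6 with an entry whose window did, 2 times. The matches describe the letters of these windows and no binding was measured.

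Each array gave 1 signal per probe set on a linear scale, and array medians lay between 118.8 and 151.45. A group mean below 67.0, the lowest 40th percentile of any array, is called near the floor, where the size of a change is uncertain. Changes are differences of log2(signal + 16), which understates changes of low signals, and a probe set was called when its adjusted p in limma was under 0.05. With DES all tested probe sets had a median change of -0.131 for ACI, -0.089 for COP and -0.064 for BN. In ACI 4327 of 10726 calls were rises, against 6000 of 10443 after centring each array on its median and 4950 of 10291 after quantile normalization. Arrays numbered 1 and 2 deviated from their group means together and apart from those numbered 3 and 4 on all 21 arrays. The labels do not call these number sets a batch, so values within each set are given beside the changes of the members. Each strain had 2 control and 2 DES arrays numbered 1 and 2. Numbers 3 and 4 held 2 DES arrays but 1 control array a strain, so values within that set rest on 1 control. The tissue label was borne out by prolactin, growth hormone and thyrotropin signals in every group, with summed lactotroph markers of 34782.9 to 74586.7.

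Treatment with DES raised Pgr and lowered Nr3c1, Nr3c2 and Ncoa1 in all 3 strains, and it raised Nrip1 in COP and BN. Of the 13 probe sets, 1 rose and 5 fell in ACI, 2 rose and 4 fell in COP, and 2 rose and 5 fell in BN. Over all 21861 probe sets tested, 49.1%, 43.1% and 33.5% were called in these comparisons, with rises at 19.8%, 17.9% and 14.1% and falls at 29.3%, 25.2% and 19.4%. The 13 had a median change of -0.41 for ACI, -0.53 for COP and 0.11 for BN. Each median is the value of 1 dim probe set, so it says little of the brighter members. These were Ncoa1 (probe set 3) in ACI, Ncoa3 (probe set 2) in COP and Esr2 in BN. The DES arrays did not overlap the control arrays for 6 probe sets in ACI, 8 in COP and 7 in BN, against 54%, 48.3% and 36.8% of all probe sets. A rise called in all 3 strains was found for 9.28% of all probe sets and a fall for 13.4%. RNA came from whole glands, in which fewer cells of a type and less RNA per cell cannot be told apart.

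**Figure D1:**
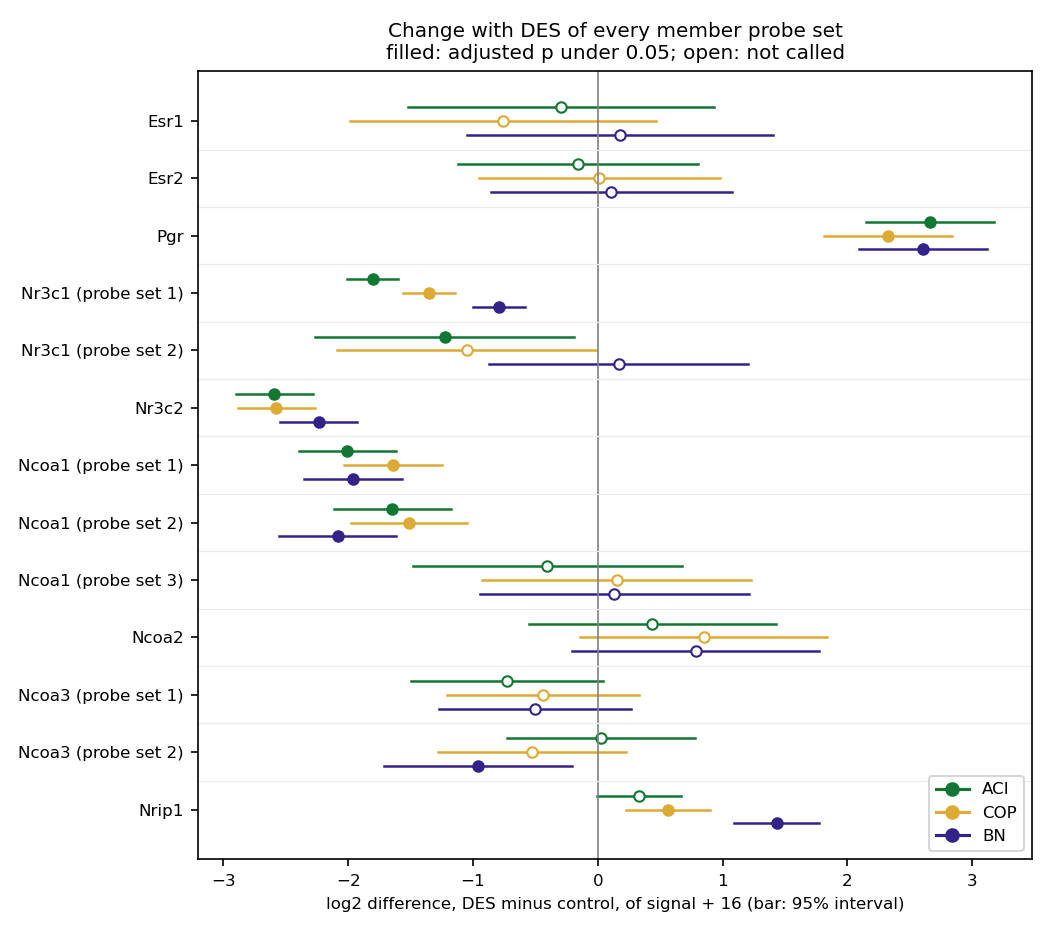
Change with DES for all 13 member probe sets in ACI, COP and BN, as the difference of log2(signal + 16) with its 95% interval, and filled points mark calls at an adjusted p under 0.05. Pgr stands apart on the right at 2.33 to 2.66, and Nr3c2, Ncoa1 and Nr3c1 stand on the left in each strain.

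Pgr, the progesterone receptor, rose by a similar amount in the 3 strains. In ACI its signal was 109, 138.8 and 115.6 in control rats and 955.7, 772.7, 825 and 849.2 with DES. In COP it was 147.8, 111.9 and 197.4 in control rats and 778.6, 844.2, 791.3 and 832 with DES. All DES arrays of both strains lay above all of their control arrays, by several times the spread within groups. In BN it was 182, 138.2 and 72.2 in control rats and 1165.1, 1117.3, 612.4 and 596.7 with DES, again with no overlap but with the arrays numbered 1 and 2 the higher ones in both groups. The mean signal was 7.02, 5.33 and 6.67 times the control mean in ACI, COP and BN, and the log2 changes were 2.66 (SE 0.247), 2.33 and 2.61 (adjusted p = 8.46e-09, 9.92e-08 and 3.87e-08). Within arrays numbered 1 and 2 the changes were 2.65, 2.51 and 2.73, and within those numbered 3 and 4 they were 2.70, 1.96 and 2.81. Each strain gave the smallest p that a two-sided exact permutation test over its 35 splits allows, 0.0286. Here and below, this test counts every array as an independent rat, though the sample notes count fewer independent replicates. With fewer rats the smallest possible p would be larger.

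Nr3c1 (probe set 1), the glucocorticoid receptor, fell in all 3 strains and fell furthest in ACI. In ACI its signal was 2188.2, 2353.9 and 2304.9 in control rats and 715.3, 652.7, 570.7 and 637.2 with DES. In COP it was 1913.5, 1895.8 and 1834.1 in control rats and 722.6, 756.2, 633.7 and 803.6 with DES. In both strains every DES array was below every control array, by more than the spread of either group. In BN it was 2842.3, 2815.7 and 3110.8 in control rats and 1731.6, 1560.7, 1837.5 and 1601.1 with DES, so that the lowest BN array with DES was still above all ACI and COP arrays with DES. The DES mean was 3.54-fold lower in ACI, 2.58-fold lower in COP and 1.74-fold lower in BN, with log2 changes of -1.80 (SE 0.0996), -1.35 and -0.79 (adjusted p = 2.13e-12, 3.61e-10 and 2.21e-06). Within arrays numbered 1 and 2 the changes were -1.71, -1.35 and -0.78, and within those numbered 3 and 4 they were -1.91, -1.34 and -0.85.

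The dimmer probe set of Nr3c1 (probe set 2) ran from 5.6 to 116.2 over all arrays and was near the floor with DES in ACI and COP. In ACI it was 91.1, 84.7 and 59 in control rats and 29.8, 83.6, 5.6 and 9.4 with DES, and the groups overlapped through the second DES array. Its change was -1.23 in ACI (adjusted p = 0.047), a call made in 14 of 33 alternatives, and was -0.62 within arrays numbered 1 and 2 and -1.68 within those numbered 3 and 4. The changes in COP and BN, -1.05 and 0.17, were not called (adjusted p = 0.0968 and 0.834).

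Nr3c2, the mineralocorticoid receptor, fell the furthest of all members. In ACI its signal was 1498.1, 1613.1 and 1374.1 in control rats and 214.1, 268.1, 249.7 and 210.2 with DES. In COP it was 1585.6, 1140.2 and 1542.4 in control rats and 170.5, 265.8, 245.8 and 221.4 with DES. The groups were far apart in both strains, and the lowest control array was several times the highest DES array. In BN it was 1798.2, 1924.4 and 1937.7 in control rats and 347.4, 407.2, 445.5 and 357.9 with DES, and each BN array with DES was above each ACI and COP array with DES. The DES mean was 6.35-fold lower in ACI, 6.30-fold lower in COP and 4.84-fold lower in BN, with log2 changes of -2.59, -2.57 and -2.24 (adjusted p = 3.54e-12, 6.08e-12 and 1.43e-10). Within arrays numbered 1 and 2 the changes were -2.62, -2.57 and -2.26, and within those numbered 3 and 4 they were -2.50, -2.64 and -2.23.

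**Figure D2:**
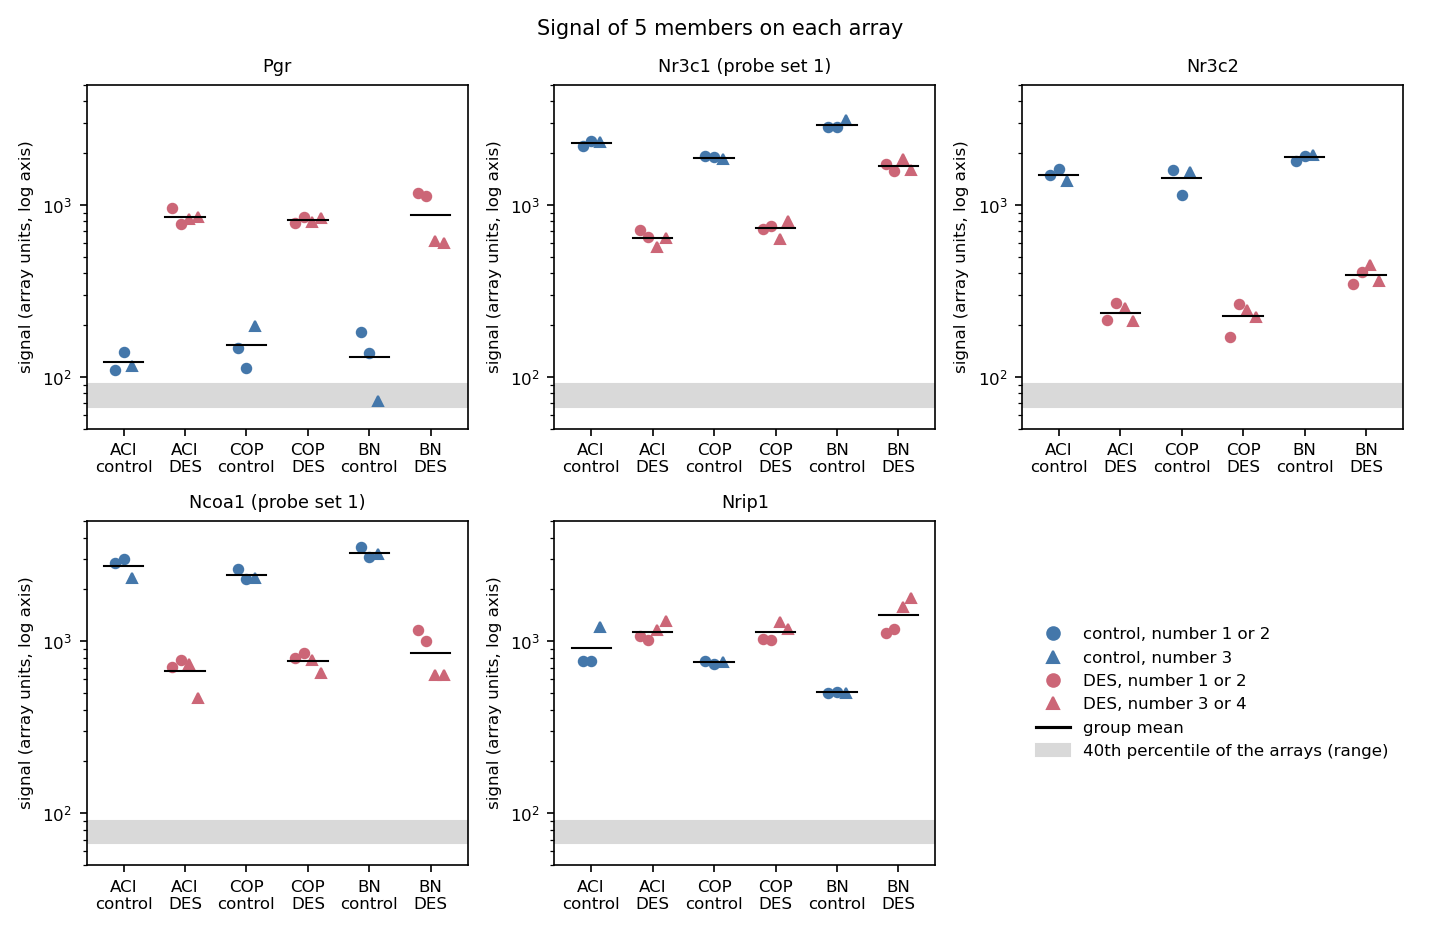
Signal of Pgr, Nr3c1, Nr3c2, Ncoa1 and Nrip1 on each of the 21 arrays, on a log axis, by strain and treatment. Circles are arrays numbered 1 and 2, triangles those numbered 3 and 4, lines the group means, and the gray band the 40th percentiles of the arrays, 67.0 to 90.6; control and DES arrays are separate for the first 4 genes in every strain, and for Nrip1 in COP and BN.

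The estrogen receptors themselves were measured too weakly for a change to be resolved. Esr1, the main estrogen receptor of the pituitary, ran from 5.1 to 135.7 over the 21 arrays, and its DES group means were near the floor in all 3 strains. It was above the 40th percentile of its own array on only 7 arrays. In ACI the signal was 66.2, 115.5 and 22.6 in control rats and 102.8, 78.6, 23 and 15.6 with DES, in COP 135.7, 98.1 and 53.3 against 73.3, 68.5, 22.5 and 37.4, and in BN 76.9, 132 and 5.1 against 68.5, 92.1, 25.2 and 66.8. The groups overlapped in each strain, and the control array numbered 3 was the lowest control of all 3 strains. The Esr1 changes within arrays numbered 1 and 2 were 0.03, -0.60 and -0.29, and within those numbered 3 and 4 they were -0.14, -0.61 and 1.47. The changes of -0.29 (95% interval -1.52 to 0.93), -0.76 (-1.99 to 0.47) and 0.17 (-1.05 to 1.40) were not called (adjusted p = 0.71, 0.322 and 0.854), and their intervals reach from clear falls to clear rises. Esr2, the estrogen receptor beta, was listed at 1.8 to 12.3 on every array, below the floor throughout, and was not called in any comparison, with changes within the number sets of -0.30 to 0.08.

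Ncoa1 (probe set 1), a coactivator that acetylates histones and binds most steroid receptors, fell in all 3 strains. In ACI its signal was 2832.4, 3025.9 and 2322.4 in control rats and 712.1, 781.3, 738.9 and 469.1 with DES. In COP it was 2643.9, 2297 and 2334.2 in control rats and 797.9, 852.4, 779.9 and 650.1 with DES. The groups did not overlap in either strain, and the fourth DES array was the lowest of its group in both. In BN it was 3532.2, 3090 and 3200 in control rats and 1160.3, 1004.3, 635.2 and 632.7 with DES, with no overlap and with the DES arrays numbered 3 and 4 below the DES arrays numbered 1 and 2. The DES mean was 4.04-fold lower in ACI, 3.15-fold lower in COP and 3.82-fold lower in BN, with log2 changes of -2.01, -1.64 and -1.96 (adjusted p = 1.04e-08, 3.17e-07 and 4.83e-08). Within arrays numbered 1 and 2 the changes were -1.95, -1.56 and -1.60, and within those numbered 3 and 4 they were -1.95, -1.69 and -2.31.

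The next brightest probe set of Ncoa1 (probe set 2) gave changes of the same sign and a similar size. It ran from 1511.5 to 2939.8 on control arrays and from 390.5 to 998.5 on DES arrays, and changed by -1.65 in ACI, -1.51 in COP and -2.09 in BN (adjusted p = 2.45e-06, 1.05e-05 and 2.49e-07). These changes were, within arrays numbered 1 and 2, -1.81, -1.35 and -1.59, and within those numbered 3 and 4 they were -1.30, -1.75 and -2.52. Its dimmest (probe set 3) lay between 2.4 and 64.1, had near-floor means in all 6 groups and was not called, with changes within the number sets of -1.74 to 0.25, so it neither adds to nor takes from the values of the brighter pair.

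Neither Ncoa2 nor Ncoa3, which share the histone-modifying role of Ncoa1, changed clearly. Ncoa2 lay between 5.4 and 61.5 on all arrays and near the floor in every group, and its changes of 0.43, 0.85 and 0.79 were not called (adjusted p = 0.475, 0.161 and 0.221), with values within the number sets of 0.20 to 1.13. Ncoa3 (probe set 1) was 172.9, 175.2 and 158.2 in ACI control rats and 96, 121.7, 110.4 and 63.2 with DES. These ACI groups did not overlap (exact permutation p = 0.0286), but the change of -0.73 did not pass the test across all probe sets (adjusted p = 0.111), and the changes of -0.44 in COP and -0.50 in BN were not called (adjusted p = 0.366 and 0.324). The Ncoa3 changes within arrays numbered 1 and 2 were -0.61, -0.27 and -1.16, and within those numbered 3 and 4 they were -0.80, -0.67 and 0.33.

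The dimmer probe set of Ncoa3 (probe set 2) was near the floor in both BN groups. In BN its signal was 33.5, 47.4 and 37.8 in control rats and 6.5, 3.3, 6.8 and 50.4 with DES, and the fourth DES array was above all 3 controls. The change of -0.96 was called (adjusted p = 0.0464), but was called in 12 of 33 alternatives and was -1.36 without that array, -1.43 within arrays numbered 1 and 2 and -0.47 within those numbered 3 and 4. In ACI and COP the changes were 0.03 and -0.53 with no call. The 2 probe sets of Ncoa3 therefore gave calls that differ and no common direction in ACI.

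**Figure D3:**
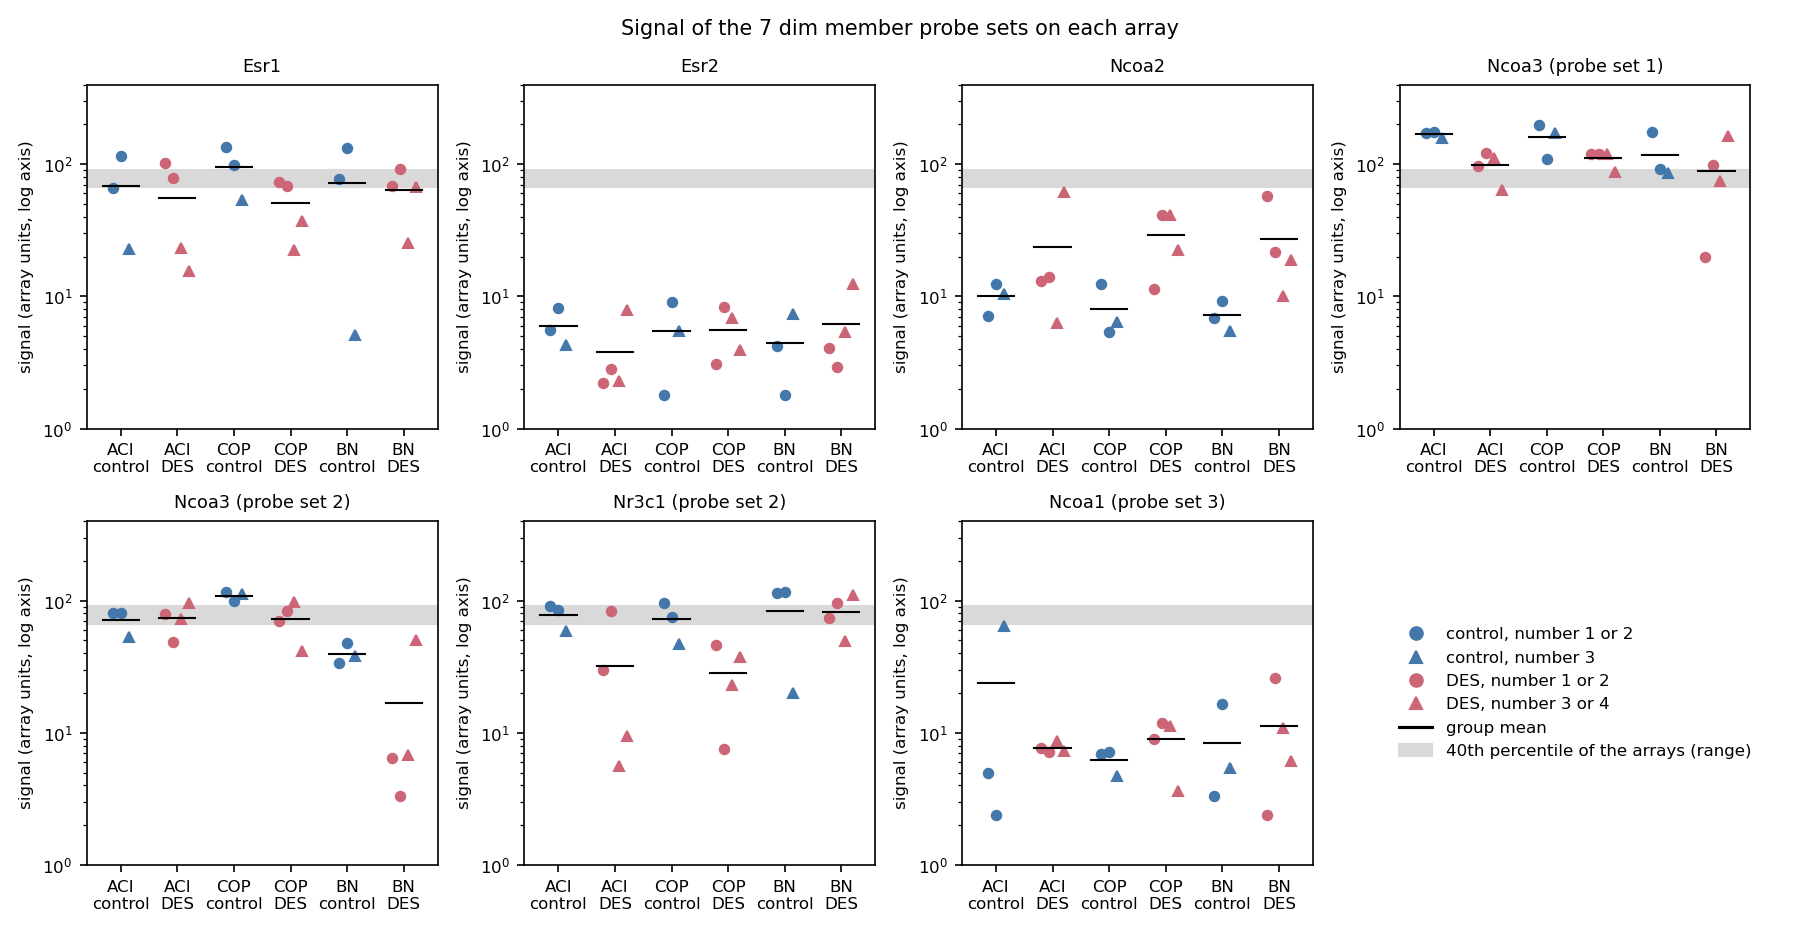
Signal per array of the 7 dim member probe sets, of Esr1, Esr2, Ncoa2, Ncoa3 (both), Nr3c1 (probe set 2) and Ncoa1 (probe set 3), by strain and treatment, with symbols and band as for the bright members. Esr2, Ncoa2 and Ncoa1 lie below the band of 40th percentiles, 67.0 to 90.6, on every array. Control and DES arrays overlap in every strain for Esr1, Esr2 and Ncoa1. They are separate for Ncoa2 in BN, Ncoa3 (probe set 1) in ACI, and Ncoa3 (probe set 2) and Nr3c1 in COP.

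Nrip1, also called RIP140, a corepressor that estrogen receptors recruit, rose most in BN. In BN its signal was 501.7, 508.6 and 501.4 in control rats and 1113, 1170.8, 1591.2 and 1778.8 with DES. In COP it was 770.8, 737.8 and 759.6 in control rats and 1035.2, 1021.8, 1294.9 and 1170.1 with DES. Both strains showed no overlap, and in BN the DES arrays numbered 3 and 4 were the higher ones. In ACI it was 767.4, 771.3 and 1214.5 in control rats and 1066.2, 1021.1, 1156 and 1307.4 with DES, so that the third control array lay within the DES range. The DES mean was 2.81 times the control mean in BN, the log2 changes were 1.43 in BN and 0.56 in COP (adjusted p = 5.25e-07 and 0.00738), and the ACI change of 0.33 (95% interval -0.01 to 0.67) was not called (adjusted p = 0.096, exact permutation p = 0.229). Within arrays numbered 1 and 2 the changes were 0.43 (ACI), 0.44 (COP) and 1.15 (BN), while within those numbered 3 and 4 they were 0.02, 0.69 and 1.71. Without the third ACI control array the ACI change was 0.55 and was called (adjusted p = 0.00728), and it was also called after quantile normalization (0.44, adjusted p = 0.0375) and after centring on array medians (0.55, adjusted p = 0.00886). The ACI rise was called with the number set as a block too (0.28, adjusted p = 0.0488). It was also called within arrays numbered 1 and 2 (adjusted p = 0.00172), which again leaves out the third control array. That array is the only ACI control within those numbered 3 and 4, too few to judge a call.

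**Figure D4:**
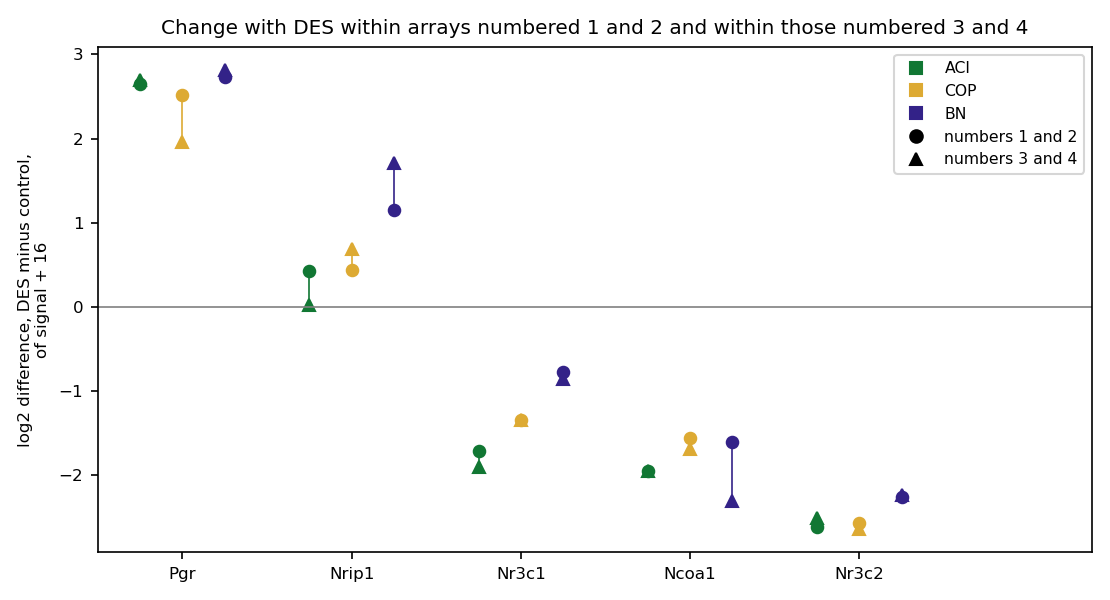
Change with DES of Pgr, Nr3c1, Nr3c2, Ncoa1 and Nrip1 in each strain, as the difference of log2(signal + 16), computed within arrays numbered 1 and 2 and within those numbered 3 and 4. The sign was the same in both sets for every gene and strain, and the sets were furthest apart for Ncoa1 and Nrip1 in BN. Values for numbers 3 and 4 rest on 1 control array a strain, and that of Nrip1 in ACI was 0.02.

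In control rats the strains differed in 3 member comparisons. Nr3c1 was lower in ACI than in BN by a log2 difference of -0.35 and lower in COP than in BN by -0.63 (adjusted p = 0.0473 and 0.000552), and Nrip1 was higher in ACI than in BN by 0.81 (adjusted p = 0.00443). That made 2 of 13 probe sets called between ACI and BN, 1 between COP and BN and 0 between ACI and COP, against 6.78%, 5.69% and 1.2% of all probe sets. The Nr3c1 difference between ACI and BN kept its call in only 14 of 32 alternatives, and the Nrip1 difference fell to 0.60 without the third ACI control array (adjusted p = 0.0356). Nrip1 in COP stood above BN by 0.57, which was not called (adjusted p = 0.0573).

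After DES, ACI and COP each differed from BN in both corticosteroid receptors. Nr3c1 was lower than in BN by -1.37 in ACI and -1.19 in COP (adjusted p = 3.34e-10 and 5.21e-09), and Nr3c2 by -0.69 and -0.76 (adjusted p = 0.000477 and 0.000329). The dimmer Ncoa3 probe set was higher than in BN by 1.63 and 1.60 (adjusted p = 0.000689 and 0.00133), where the BN mean is near the floor. In all, 4 probe sets were called between ACI and BN, the remaining one being the dim Nr3c1 probe set, 3 between COP and BN and 0 between ACI and COP, against 31.3%, 22.2% and 4.68% of all probe sets. That dim probe set was called (adjusted p = 0.0422) in 20 of 32 alternatives, with overlapping arrays and an ACI mean near the floor. Nr3c1 itself differed by -0.17 between ACI and COP after DES, which was not called (adjusted p = 0.386).

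The response to DES itself differed between strains for Nr3c1 and Nrip1. For Nr3c1 the change was more negative in ACI than in BN by -1.01 (SE 0.141, adjusted p = 4.45e-05) and in COP than in BN by -0.56 (adjusted p = 0.0206). For Nrip1 the change was smaller in ACI than in BN by -1.10 (SE 0.230, adjusted p = 0.00236) and in COP than in BN by -0.87 (adjusted p = 0.0289). These were 2 of 13 probe sets between ACI and BN, 2 between COP and BN and 0 between ACI and COP. Of all probe sets, 14.1%, 5.22% and 0.531% were called, and both comparisons with BN use the same BN arrays. Nrip1 in ACI stood above BN by 0.81 in control rats. After DES it differed from BN by -0.29, which was not called (adjusted p = 0.156).

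Both differences between ACI and BN were called in 32 of 32 alternatives, and the 2 differences between COP and BN were not. The Nr3c1 difference between COP and BN lost its call without COP control array 1 or 2 or BN control array 1 or 2. Within arrays numbered 3 and 4 it was -0.49, with 1 control array a strain, too few to judge a call. The Nrip1 difference between COP and BN was called in 21 of 32 alternatives. The Nrip1 difference between ACI and BN was -0.72 within arrays numbered 1 and 2 and -1.70 within those numbered 3 and 4. For Nr3c1, ACI and COP differed in response by -0.45 (95% interval -0.74 to -0.16), which was not called over all probe sets (adjusted p = 0.19). For Nr3c2, whose fall was also smaller in BN, the response differed by -0.35 between ACI and BN (95% interval -0.79 to 0.08) and was not called (adjusted p = 0.296). The responses of Pgr and Ncoa1 were not called as different between any pair of strains.

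Genes that glucocorticoid is known to induce both rose and fell with DES. Of 8 such genes on the array, 3 rose and 5 fell in ACI, 3 rose and 4 fell in COP, and 4 rose and 4 fell in BN, where 55.6%, 49.8% and 39.5% of all genes were called. Rises made up 23.2%, 21.6% and 16.9% of all genes and falls 32.5%, 28.1% and 22.6%. The 8 genes had a median change of -1.03 for ACI, -0.47 for COP and 0.07 for BN, against -0.13, -0.08 and -0.06 over all genes. Fkbp5, a chaperone that lowers the hormone affinity of the receptor, fell by 2.42 on the log2 scale in ACI, 1.79 in COP and 1.02 in BN (adjusted p = 7.33e-11, 1.37e-08 and 5.92e-05). Tsc22d3, which encodes the anti-inflammatory protein GILZ, fell by 1.30, 1.01 and 0.70 (adjusted p = 2.09e-09, 1.53e-07 and 3.66e-05). Ddit4, an inhibitor of mTOR signaling, fell by 1.06, 1.11 and 0.49, and Klf9, a transcription factor, by 1.07, 0.86 and 0.98.

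In the other direction, Dusp1, a phosphatase that switches off MAP kinases, rose by 2.48, 2.60 and 2.41 in ACI, COP and BN (adjusted p = 2.13e-05, 1.64e-05 and 6.83e-05). Sgk1, a kinase that both corticosteroid receptors induce in kidney, rose by 0.95, 0.93 and 0.67, and Nfkbia, the inhibitor of NF-kappa-B, by 0.82, 0.88 and 0.72. Per1, a clock gene, fell by 0.99 in ACI, stood at -0.09 in COP with no call, and rose by 0.62 in BN. The response of 4 of the 8 genes differed between ACI and BN, where 17.8% of all genes did: Per1 by -1.62, Fkbp5 by -1.40, Tsc22d3 by -0.60 and Ddit4 by -0.57 (adjusted p = 0.000143, 0.000338, 0.0122 and 0.0193). Between COP and BN it differed for Ddit4 alone, by -0.62 (adjusted p = 0.0251), where 6.92% of all genes did. The counts with DES were the same after quantile normalization and after centring on array medians. Within arrays numbered 3 and 4, Ddit4 and Nfkbia changed by -0.45 and 0.55 in BN, with 1 control array, too few to judge a call.

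**Figure D5:**
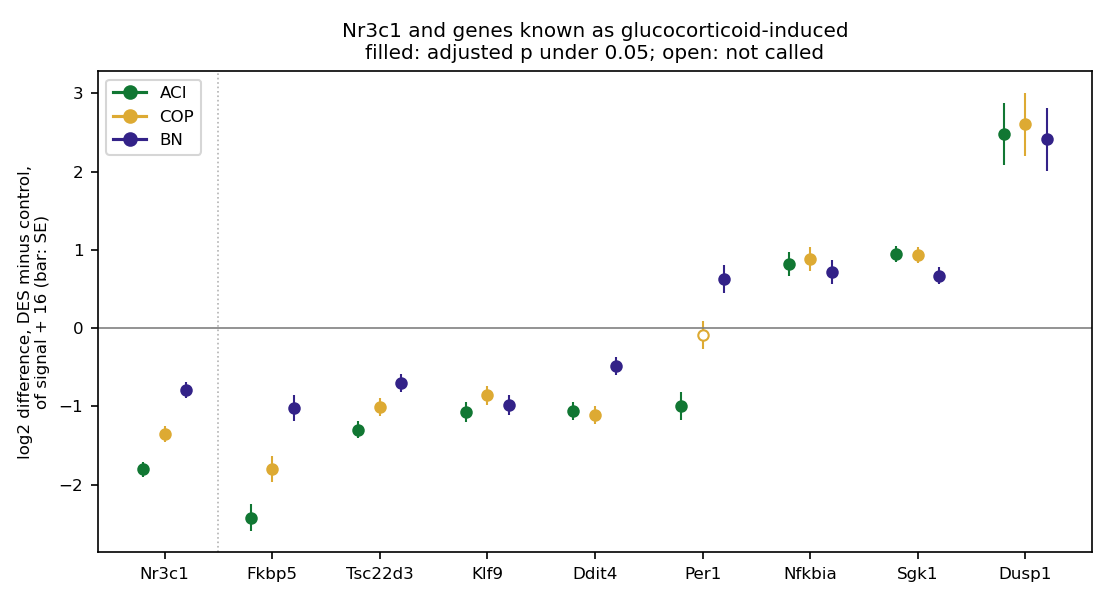
Change with DES of Nr3c1 and of 8 glucocorticoid-induced genes in ACI, COP and BN, as the difference of log2(signal + 16) with its SE. Fkbp5, Tsc22d3, Ddit4 and Klf9 lie below 0 in all 3 strains, Dusp1, Sgk1 and Nfkbia lie above 0, and Per1 is negative in ACI and positive in BN.

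Among enzymes that make or break down steroids, Hsd11b1, which regenerates active glucocorticoid inside cells, fell in ACI and COP. Its mean signal was 2105 in ACI control rats and 376 with DES (SD 295.2 and 25.7), 2583 and 740 in COP (SD 254.9 and 83.6), and 1266 and 1289 in BN (SD 226.9 and 272.6). The changes were -2.43, -1.78 and 0.02 (adjusted p = 1.49e-11, 3.53e-09 and 0.95), and the response differed from BN by -2.45 in ACI and -1.80 in COP (adjusted p = 2.18e-07 and 2.07e-05). Hsd17b4, a peroxisomal enzyme that also oxidizes estradiol, fell by 0.71, 0.58 and 0.51, and Sts, which frees steroids from their sulfates, rose by 0.68 in ACI and 0.62 in COP and was at 0.01 in BN with no call. In all, 1 of 6 such genes rose and 2 fell in ACI and in COP, and 0 rose and 1 fell in BN. Over all genes 23.2%, 21.6% and 16.9% rose in ACI, COP and BN, and 32.5%, 28.1% and 22.6% fell.

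With DES 23.2%, 21.6% and 16.9% of all genes rose in ACI, COP and BN, and 32.5%, 28.1% and 22.6% fell. Of 7 chaperones that hold steroid receptors ready for hormone, 1 rose and 3 fell in ACI. In COP 1 rose and 1 fell, and in BN 1 rose and 3 fell. The riser was Bag1, a cochaperone that binds the glucocorticoid receptor, by 2.34 in ACI, 2.38 in COP and 0.54 in BN (adjusted p = 6.53e-14, 8.34e-14 and 0.000348). Within arrays numbered 3 and 4 its BN change was 0.30, with 1 control array, too few to judge a call. Its response was larger than in BN by 1.81 in ACI and 1.84 in COP (adjusted p = 7.19e-08 and 2.21e-07). Besides Fkbp5, the cochaperone Stip1 fell by 0.50 in ACI and 0.61 in BN, Ppid by 0.28 in ACI, and Fkbp4 by 0.42 in BN. The smaller changes depended on the scaling: centring on medians ended the ACI calls of Stip1 and Ppid, and Hsp90ab1 fell in all 3 strains after quantile normalization but rose in COP after centring on medians.

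Of 6 other receptors, 1 rose and 3 fell in ACI. In COP 1 rose and 2 fell, and in BN 1 rose and 1 fell. Among all genes 23.2%, 21.6% and 16.9% rose in ACI, COP and BN, and 32.5%, 28.1% and 22.6% fell. Esrrg, an orphan receptor related to Esr1 that binds no known natural steroid, fell by 1.07 in ACI and 1.29 in COP and was at -0.24 in BN with no call. Its response differed from BN by -0.83 in ACI and -1.05 in COP (adjusted p = 0.00593 and 0.00214). Gper1, a membrane estrogen receptor, fell by 1.21, 1.65 and 1.24 to near-floor means, and the ACI call was lost within arrays numbered 1 and 2. Within those numbered 3 and 4 its changes were -1.82, -1.92 and -0.81, with 1 control array a strain, too few to judge a call. The membrane progesterone-binding protein Pgrmc2 rose by 0.38, 0.25 and 0.24, with the COP and BN calls lost after quantile normalization, and Pgrmc1 fell by 0.34 in ACI, though not after centring on medians.

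Of 13 other coactivators, 1 rose and 6 fell in ACI, 1 rose and 4 fell in COP, and 0 rose and 1 fell in BN, where 32.5%, 28.1% and 22.6% of all genes fell and 23.2%, 21.6% and 16.9% rose. After centring on array medians 2 rose and 4 fell in ACI, 2 rose and 2 fell in COP, and 1 rose and 1 fell in BN. The histone acetyltransferase Kat2b fell by 1.96, 1.12 and 1.13 (adjusted p = 7.84e-09, 2.95e-05 and 4.46e-05), and its response differed by -0.83 between ACI and BN (adjusted p = 0.0327). Ep300, a second acetyltransferase, fell by 0.96 in ACI and 0.49 in COP and was at -0.33 in BN with no call, and the RNA helicase Ddx5 fell by 0.46 and 0.27, the COP call being lost after centring on medians, and was at 0.01. Ppargc1b, which drives mitochondrial genes, fell by 0.57 in COP, a call lost after quantile normalization and after centring on medians (adjusted p = 0.0546 and 0.093). Ncoa7 rose by 0.31 in ACI, though not after quantile normalization, and Carm1 rose by 0.62 in COP and was at 0.39 in ACI, where it was called under both scalings and with the number set as a block.

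Of 11 corepressors, 1 rose and 4 fell in ACI. In COP 1 rose and 3 fell, and in BN 1 rose and 1 fell. Across all genes 23.2%, 21.6% and 16.9% rose in ACI, COP and BN, and 32.5%, 28.1% and 22.6% fell. Nr0b1, an orphan receptor of gonadotrophs that represses steroidogenic genes, fell by 1.29 in ACI and 0.53 in COP and was at -0.13 in BN with no call, and its response differed by -1.16 between ACI and BN (adjusted p = 0.00533). The COP call of Nr0b1 was lost after quantile normalization, after centring on medians and within arrays numbered 1 and 2 (adjusted p = 0.155, 0.0893 and 0.125). Within those numbered 3 and 4 its COP change was -0.77, with 1 control array, too few to judge a call. Ctbp2 fell by 1.17, 1.17 and 0.68, and Sin3a, a scaffold for histone deacetylases, fell by 0.76 in ACI and 0.56 in COP. Ncor1, which silences unliganded receptors, fell by 0.34 in ACI, a call lost after centring on medians. Phb2, which binds estrogen receptors, rose by 0.36, 0.32 and 0.36, none of which was called after quantile normalization.

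Markers of several pituitary cell types moved in the same comparisons, and their part in the members' changes was not tested. Beside the marker counts here and below, 23.2%, 21.6% and 16.9% of all genes rose in ACI, COP and BN. Falls made up 32.5%, 28.1% and 22.6% of all genes. Of 5 gonadotroph markers 0 rose and 5 fell in ACI and COP and 4 fell in BN, and their summed signal went from the range 27589.6 to 34738.9 on ACI control arrays to the range 785.3 to 972.4 with DES, from the range 31490.4 to 35154.4 to the range 1458.3 to 1465.4 in COP, and from the range 22740.8 to 30630.8 to the range 2204.7 to 2677.5 in BN. Of 4 corticotroph and melanotroph markers 1 rose and 3 fell in ACI and COP and 1 rose and 2 fell in BN, with Pomc near the floor in ACI and COP with DES. The riser was Pcsk2, a hormone-processing protease, and Tbx19, the transcription factor of this lineage, fell by 3.01, 2.19 and 0.94. Of 5 folliculostellate markers 3 fell in ACI and in BN and 4 in COP, and their sum went from the range 9903.1 to 11642.1 to the range 1547.2 to 2151.3 in ACI, from the range 9794.7 to 10417.9 to the range 2802.8 to 3158.6 in COP and from the range 13077.6 to 14382.3 to the range 5367.1 to 6340.9 in BN.

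Leukocyte and macrophage markers moved the other way. Of 8, 6 rose in ACI, 7 rose and 1 fell in COP, and 4 rose and 1 fell in BN, and their sum went from the range 7535.9 to 8628.6 to the range 16280.1 to 20331.7 in ACI, from the range 8811.5 to 9277.9 to the range 16749.1 to 22926.8 in COP and from the range 9962.6 to 11789.4 to the range 9702.2 to 18648 in BN. The sums overlapped only in BN. All 4 markers of dividing cells rose in ACI and COP, and 0 rose and 1 fell in BN. The lactotroph sum ran from 34782.9 to 52025.2 on control arrays and from 42231.4 to 74586.7 on DES arrays, with 1 of 3 markers lower in every strain and 1, prolactin, higher in COP and BN, though not after quantile normalization.

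Fibroblast and thyrotroph sums were lower with DES in ACI and COP. Of 5 fibroblast markers 1 rose and 2 fell in ACI, 1 rose and 3 fell in COP and 0 rose and 2 fell in BN, and their sum went from the range 8425 to 11008 to the range 2231.4 to 2785 in ACI, from the range 9404.3 to 10529.6 to the range 1441.7 to 2233.1 in COP and from the range 4012.5 to 5915.5 to the range 1625.2 to 4386.9 in BN. Of 2 thyrotroph markers 1 fell in ACI and in COP and 1 rose in BN, and their sum went from the range 25572.5 to 38445 to the range 9657.5 to 10601.1 in ACI, from the range 30775.9 to 32131.2 to the range 8558.6 to 13371.4 in COP and from the range 28420.9 to 29731.2 to the range 28105.2 to 49834.1 in BN. The BN groups overlapped for both lists. The somatotroph sum overlapped between groups in ACI only and was higher with DES in COP (34877.4 to 42195.9 against 26367.8 to 28131.6) and BN (33249.9 to 61508.1 against 21563.8 to 26797.7). Neural lobe sums were lower with DES in ACI (7788.9 to 9360.6 against 11211.3 to 15109.3) and COP (8356.2 to 10720.9 against 12165.1 to 13924.1) and overlapped in BN, and endothelial sums were lower in ACI (1528.8 to 1685.8 against 2019.5 to 3145.2), overlapped in COP and were higher in BN (2812.4 to 3445.8 against 1577.2 to 2259.1).

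For the 4 genes called in all 3 strains, the genes with the most similar pattern over the 6 group means were found among 11739 genes, by the root mean square difference of log2(signal + 16) after centring each gene on its own mean. Nearest to Pgr were Gas6 at 0.0626, Lhfpl3 at 0.123 and Bcan at 0.132. Nearest to Nr3c1 were B4galt6 at 0.0434, Rwdd3 at 0.0952 and Rasd2 at 0.104. B4galt6, a glycosyltransferase picked here for its likeness to Nr3c1, changed by -1.88 in ACI, -1.42 in COP and -0.68 in BN. Nearest to Nr3c2 were Idi1 at 0.112, Lima1 at 0.149 and Cgn at 0.167, and nearest to Ncoa1 were Yeats2 at 0.0588, Gcsh at 0.105 and Tmem200c at 0.109. These distances describe 6 group means and carry no test.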

How the data were processed

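Anterior pituitary RNA was read on 21 Affymetrix Rat Genome 230 2.0 arrays, each of 1 color. The deposited values are intensity signals on a linear scale, which the authors had scaled on each array to a common 2% trimmed mean, and the summarization software is not given in the sources used here. Deposited intensities were converted to log2 after adding 16, with no further scaling. A probe set was tested when it was above the 40th percentile on at least 3 arrays, members were tested regardless, and 57 control probe sets were left out. With limma 3.58.1 (R 4.3.3), 1 linear model of the 6 groups took in every array (empirical Bayes with a trend, median 21.6 total degrees of freedom), and two-sided p values were adjusted by the Benjamini-Hochberg method over 21861 probe sets. The brightest probe set stood for a gene. At most 3 genes per companion list were to be named, by smallest adjusted p with DES, and every gene of a list with 5 or fewer calls. Klf9, Dusp1, Sgk1, Nfkbia, Per1, Ncoa7, Carm1, Ppargc1b and Hsp90ab1 were named beyond this, after their values were seen. Of 60 companion genes 53 were on the array. Members, lists and tests were chosen with earlier results of these data known. Alternatives were other filters, pseudocounts, scalings, models and sets of arrays. The pipeline was tested on simulated data. Promoter windows came from RefSeq (GRCr8), with entries for 6 of 9 members. Figures were drawn with matplotlib 3.10.9.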

Additional observations from a re-analysis of the deposited data

Results flagged for a closer look

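In 3 of the 39 groups of 4 DES arrays, an array stood apart from the rest by more than Dixon's limit, and chance alone gives about 1 such group in 20. For Esr2 in ACI the gap was 0.881 of the group's range, with 1 array at 7.9 and the others at 2.2 to 2.8, all below the floor. For Ncoa3 (probe set 1) in COP it was 0.968, with 1 array at 86.7 and the others at 118.7 to 119.9. For Ncoa3 (probe set 2) in BN it was 0.865, with 1 array at 50.4 and the others at 3.3 to 6.8. No called change of a bright member rested on such a group.

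The response to DES differed between strains by a test of the difference itself in 4 cases. For Nr3c1 the log2 difference was -1.01 between ACI and BN and -0.56 between COP and BN, and for Nrip1 it was -1.10 between ACI and BN and -0.87 between COP and BN.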

How the results depend on the processing

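With DES, the calls of Pgr, Nr3c1 (probe set 1), Nr3c2 and Ncoa1 (both bright probe sets) in all 3 strains and of Nrip1 in COP and BN were made in 33 of 33 alternatives each. The number of member probe sets called ran from 5 to 7 in ACI, 6 to 7 in COP and 6 to 7 in BN. The 3 strain differences in control rats became 7 with only arrays numbered 1 and 2, and 2 to 5 with 1 array left out, the 5 without BN DES array 4. The 7 differences after DES became 11 with only arrays numbered 1 and 2, and 6 to 8 with 1 array left out. The 4 differences in response became 2 without COP control array 1 or 2 or BN control array 1 or 2, with a range of 2 to 4. The replicate numbers do not pair the arrays by the labels, and arrays of the same number correlated in their deviations at r = -0.0467 to 0.316 (32 of 48 pairs over 0.1). With a replicate block, 6, 6 and 7 probe sets were called with DES in ACI, COP and BN, and 4, 9 and 4 differences in control rats, after DES and in response. Changes that turned sign were all of dim probe sets and none was called. Esr1 turned to 0.0281 in ACI and -0.30 in BN with arrays numbered 1 and 2, and with 1 array left out it ran from -0.77 to 0.12 in ACI and from -0.65 to 0.75 in BN. Esr2 turned in ACI to 0.0576 with median centring and 0.0429 with arrays numbered 3 and 4, and in COP to -0.0214 with quantile normalization, -0.0475 with the replicate block, -0.007 with the number set block and -0.0134 with arrays numbered 3 and 4. With 1 array left out, Esr2 gave -0.114 to 0.131 for COP and -0.0145 to 0.2079 for BN. Ncoa3 (probe set 1) turned to 0.33 in BN with arrays numbered 3 and 4. The change of the dim Nr3c1 probe set (probe set 2) with DES in ACI ran from -1.92 to -0.62 and that of the dim Ncoa3 probe set (probe set 2) in BN from -1.91 to -0.39, both furthest with 1 added before log2. Alternatives for the companion and marker lists were chosen after seeing the data. The cause of these changes was not tested. Dim signals, near the floor in every group for Esr2 and Ncoa2 and in the DES groups for Esr1, limit what can be said of these genes.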
